A study of Mus musculus with 30 samples.

Results

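The axon guidance ligands and receptors were described here across sorted mouse islet cells. They are the genes of the deposited table whose symbol begins with Epha, Ephb, Efna, Efnb, Sema and a digit, Plxn, Robo and a digit, Ntn and a digit, or Unc5, or is Nrp1, Nrp2, Slit1, Slit2, Slit3 or Dcc. This rule used names alone and found 47 of the 17775 genes. Of these, 45 belong to the named families: 6 ephrins, 6 Eph receptors, 3 secreted and 10 membrane-bound semaphorins, 7 plexins, 2 neuropilins, 1 Slit, 3 Robo receptors, 3 netrins and 4 netrin receptors of the Unc5 family. The other two, Unc50 (a Golgi membrane protein) and Unc5cl (a death-domain protein named after Unc5c), match by their letters only.

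The libraries are bulk RNA-seq of cells sorted by fluorescence, 30 in 5 groups. The alpha group (n = 8) held mature alpha-cells of 3-month-old Glucagon-Venus mice, and the beta group (n = 7) held mature beta-cells of 3-month-old Insulin-mCherry mice. The alpha DT group (n = 4) came from Glucagon-Venus; RIP-DTR mice, in which the insulin promoter drives the diphtheria toxin receptor, 30 days after toxin given at 2 months of age. The alpha Pdx1 group (n = 5) carried Glucagon-rtTA and TetO-Cre with the R26YFP reporter and CAG-Pdx1, in which the glucagon promoter drives the switch that turns Pdx1 on, at 3 months of age, and the alpha Pdx1 DT group (n = 6) came from mice that had RIP-DTR in addition and were taken 30 days after toxin, also given at 2 months. Doses of toxin and inducer are unknown here. The Pdx1 groups and the groups without Pdx1 differ in reporter and driver alleles too, and the toxin groups carry RIP-DTR where the others do not, so these cannot be told apart from Pdx1 and from beta-cell loss. Whether each library is a separate animal is not stated, and p-values therefore cover only the spread among these libraries, which may be technical.

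Axon guidance genes encode short-range and secreted cues and the receptors that read them. Ephrins on 1 cell bind Eph receptors on its neighbour, semaphorins act through plexins with neuropilins as co-receptors of the secreted class, Slits act through Robo receptors, and netrins act through Dcc and Unc5 receptors. In islets, ephrin-A and EphA proteins on touching beta-cells tune insulin secretion, and Robo receptors in beta-cells are needed for the normal arrangement of the endocrine cell types. Pdx1 is the homeodomain factor that marks beta-cells and is normally absent from alpha-cells.

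Values below are the deposited quantile-normalized log2 values, on which every library has the same quartiles (5.95, 8.55 and 10.37). They rank genes within a library, and values of different genes are not compared because they are not per length. Where 3 values are given for a group of more than 5 libraries, they are its lowest, median and highest. Fold changes are log2 differences of group means with their standard error, and adjusted p-values come from limma over the 16633 genes that reached 5 in 4 or more libraries, with a threshold of 0.05. That filter kept 44 of the 47 genes and left out Epha3, Ephb3 and Sema3a. A gene can meet it through 1 group alone, and such a gene was bound to differ from groups where it was low. At least 5 was reached in every library by 24 of the 47 and in no library by Ephb3. In bulk RNA, fewer cells of a type and less RNA per cell cannot be told apart.

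Several libraries stood apart from their group in genes outside the guidance families. The table holds no read numbers. Counts of distinct values under the first quartile, a sign of depth, were 32 to 111 per library. Pdx1, the gene that checks the labels, was 3.66 to 5.61 in 7 alpha libraries and 11.23 in the library labelled alpha 8. It was 11.53 to 12.59 in 5 alpha Pdx1 DT libraries and 5.51 in the library labelled alpha Pdx1 DT 5. In the alpha Pdx1 group the library labelled alpha Pdx1 5 had 8.61 against 10.78 to 11.83 in the others. Gcg, which encodes glucagon, was at the top value of the table, 22.56, in the libraries labelled beta 1 and beta 5, and 15.16 to 17.92 in the other beta libraries. The library labelled alpha Pdx1 DT 5 was also the closest to alpha 4 of all 435 pairs by guidance genes, with a median absolute difference of 0.139 against a median of 0.78 over pairs. Over all genes the Pearson correlation of that pair was 0.9935, against a median of 0.8862. For alpha 8 and for alpha Pdx1 DT 5 the Pdx1 value goes against the label, and the group values below include both. As log2 of summed linear values, acinar markers were 11.79 in alpha 4 and 11.65 in alpha Pdx1 DT 5, and leukocyte markers 8.7 and 8.52. Whether a label is wrong, the cells are unusual or this pair is the same material was not tested. The main fit counts alpha 4 and alpha Pdx1 DT 5 as separate libraries. The leading genes of each comparison are given with all libraries and without these 5. Of the identity markers, 9 of 9 alpha markers were lower and 9 of 9 beta markers higher in beta than in alpha. Leukocyte markers, of which 10 of 11 were in the table, summed to 8.51 to 11.36 in alpha, 12.12 to 16.07 in alpha DT, 8.20 to 9.80 in alpha Pdx1, 8.52 to 15.99 in alpha Pdx1 DT and 10.16 to 15.39 in beta, on the log2 scale of summed linear values. Csf1r, Tyrobp, C1qb and C1qc stayed under 5 in every alpha Pdx1 library, and C1qb and C1qc in every alpha library.

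Beta-cells had less of many guidance ligands than alpha-cells, while receptors differed in both directions. Of the 44 genes tested, 24 passed the threshold (54.5%), 7 higher and 17 lower in beta. Over all genes tested 34.5% passed, 16.9% higher and 17.6% lower. The median log2 fold change of the 44 was -0.45, and that of all genes was 0. Among 22 ligands 2 were higher and 11 lower, and among 20 receptors 4 were higher and 6 lower. The plot of fold changes by family shows ephrins and membrane-bound semaphorins mostly on the lower side.

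**Figure D1:**
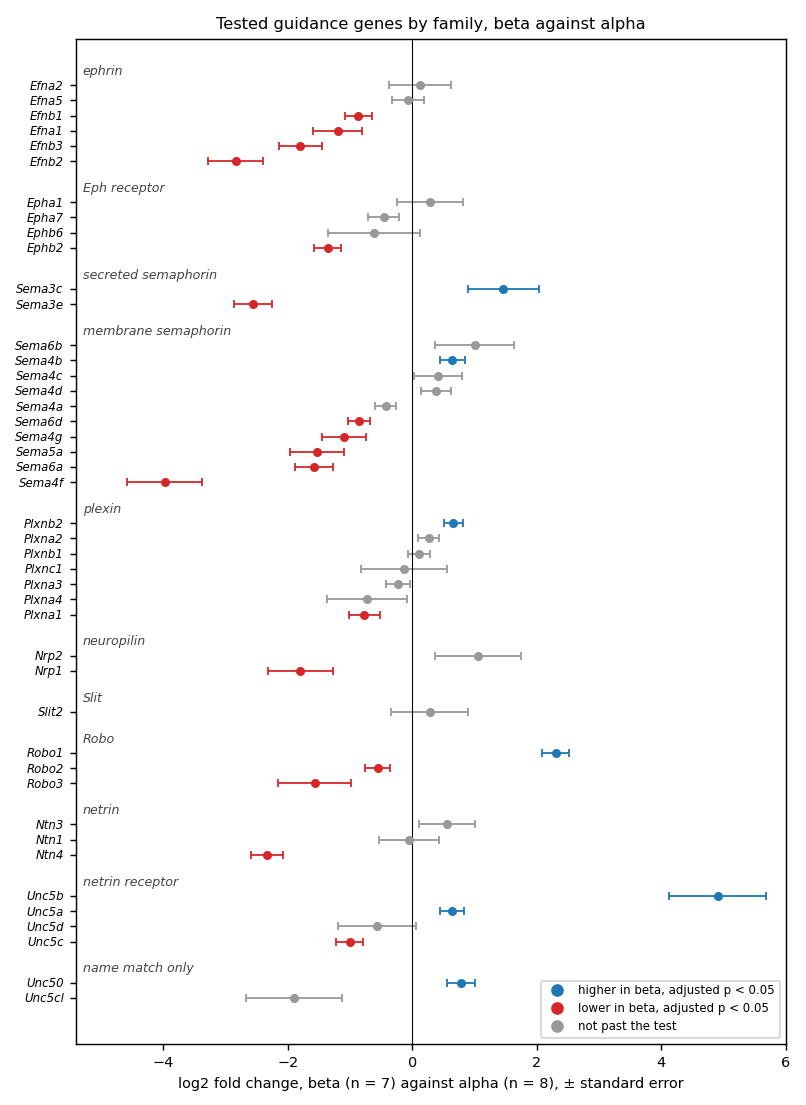
Log2 fold change of each tested guidance gene in beta (n = 7) against alpha (n = 8), grouped by family, with bars for ± 1 standard error and colour for the call at an adjusted p of 0.05. Unc5b at 4.91 and Robo1 at 2.30 lie farthest to the right, and Sema4f at -3.98 farthest to the left.

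The receptors Unc5b and Robo1 had the largest rises in beta. Unc5b, a netrin receptor known from blood vessel guidance, had log2 values of 0.76, 2.71 and 6.47 in alpha and of 7.54, 7.85 and 8.33 in beta. The alpha libraries were low and widely spread, the beta libraries were high and close together, and the groups did not overlap. Its log2 fold change was 4.91 ± 0.78 (adjusted p = 6.91e-06, limma). In the 15 fits that each left out 1 library it ran from 4.58 to 5.40, and without the 5 libraries it was 5.49. In most alpha libraries Unc5b lay under the filter's value of 5, so the size of this fold rests on values near the bottom of the table. Robo1, a Slit receptor, had log2 values of 9.03, 9.28 and 9.63 in alpha and 11.11, 11.65 and 12.04 in beta. Here too no alpha library reached the lowest beta library, and the log2 fold change was 2.30 ± 0.21 (adjusted p = 1.24e-10, limma). The beta libraries with high Gcg, beta 1 and beta 5, were its lowest, both at 11.11, and without the 5 libraries the log2 fold change was 2.46.

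The starts of these genes are shown because they are the receptors that separate beta from alpha most. Each line is the 250 bases before the RefSeq transcription start in GRCm38.p6, read 5′ to 3′ on the gene's strand, with CG dinucleotides in capitals. The window of Unc5b is chr10:60831582-60831831, minus strand, and that of Robo1 is chr16:72662899-72663148, plus strand. The RefSeq start of Robo1 lies 354843 bases downstream of the start of the gene in GENCODE, so that window is the start of a shorter transcript, and which start the libraries used was not analysed here.
Unc5b: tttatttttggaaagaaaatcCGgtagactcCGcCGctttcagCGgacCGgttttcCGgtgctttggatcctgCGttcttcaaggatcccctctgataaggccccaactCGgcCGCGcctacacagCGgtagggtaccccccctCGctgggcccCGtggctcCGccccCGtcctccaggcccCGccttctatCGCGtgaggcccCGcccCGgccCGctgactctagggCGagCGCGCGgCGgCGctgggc
Robo1: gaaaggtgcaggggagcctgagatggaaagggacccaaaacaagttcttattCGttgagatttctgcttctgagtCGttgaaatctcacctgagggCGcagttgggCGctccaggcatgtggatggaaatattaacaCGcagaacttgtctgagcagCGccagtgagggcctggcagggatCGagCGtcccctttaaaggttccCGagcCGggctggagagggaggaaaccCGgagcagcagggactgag
The Unc5b window holds 27 CG and is 66.8% G or C, and the Robo1 window holds 11 CG and is 56.0% G or C. Over 32851 windows of the same length the medians were 6 CG and 52.4% G or C.

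The other members of both receptor families did not all share this direction. Robo2, at chr16:73891839-74411825, minus strand, and Robo3, a divergent Robo that does not bind Slits as its relatives do, were lower in beta, with log2 fold changes of -0.56 ± 0.20 (adjusted p = 0.0321, limma) and -1.57 ± 0.59 (adjusted p = 0.0382, limma). Robo3 missed the threshold without the 5 libraries (adjusted p = 0.0973, limma) and in 8 of 15 fits with 1 library left out. Among netrin receptors, Unc5a rose in beta by 0.64 (adjusted p = 0.00824, limma), Unc5c had a log2 fold change of -1.01 ± 0.21 (adjusted p = 0.000294, limma), and Unc5d, at -0.57, did not pass (adjusted p = 0.516, limma). Exons of Unc5a overlap Hk3 on the opposite strand, which lay between 2.66 and 5.76 in the 30 libraries, and exons of Unc5c overlap an antisense gene, Gm15688, which lay between 0.76 and 6.95. The strand setting of the counting is unknown here.

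Membrane-bound and secreted ligands made up most of the fall in beta. Sema4f, a class 4 membrane semaphorin, had log2 values of 9.03, 9.78 and 12.28 in alpha and 4.37, 5.62 and 8.40 in beta. The groups did not overlap, and the 2 beta libraries nearest to alpha, at 8.16 and 8.40, were those with high Gcg. Its log2 fold change was -3.98 ± 0.60 (adjusted p = 5.84e-06, limma) and -4.96 without the 5 libraries. Sema3e, a secreted semaphorin that acts through plexin D1 without a neuropilin, had log2 values of 9.17, 9.62 and 10.20 in alpha and 6.21, 6.45 and 8.88 in beta, again with no overlap. It fell by 2.56 on the log2 scale, with a standard error of 0.31 (adjusted p = 4.06e-08, limma).

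All 3 ephrin-B ligands fell. Efnb2, the ephrin that marks arteries and signals through EphB receptors, had log2 values of 8.41, 8.93 and 9.64 in alpha and 4.86, 5.56 and 9.42 in beta. The groups overlapped only through beta 1 at 9.42, and beta 5 stood at 7.26, while the other 5 beta libraries were between 4.86 and 5.62. The log2 fold change was -2.84 ± 0.44 (adjusted p = 4.27e-06, limma) and -3.81 without the 5 libraries. Efnb3 changed by -1.80 ± 0.35 (adjusted p = 0.00014, limma) and Efnb1 by -0.87 ± 0.22 (adjusted p = 0.00239, limma). Of the ephrin-A ligands, which are held by a lipid anchor, Efna1 changed by -1.20 ± 0.39 (adjusted p = 0.0156, limma), and Efna2 (0.12) and Efna5 (-0.07) did not pass. Ephb2, a receptor for ephrin-B, was lower in beta too, at 8.20 to 9.06 in alpha and 6.70 to 7.78 in beta with no overlap, and a log2 fold change of -1.36 ± 0.22 (adjusted p = 1.16e-05, limma). Epha1, Epha7 and Ephb6, with log2 fold changes of 0.29, -0.46 and -0.62, did not pass.

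Starts of 3 ligands that fell together are shown to let their base composition be compared, in the same form as above. The window of Sema4f is chr6:82939770-82940019, minus strand, that of Sema3e is chr5:14025026-14025275, plus strand, and that of Efnb2 is chr8:8661243-8661492, minus strand.
Sema4f: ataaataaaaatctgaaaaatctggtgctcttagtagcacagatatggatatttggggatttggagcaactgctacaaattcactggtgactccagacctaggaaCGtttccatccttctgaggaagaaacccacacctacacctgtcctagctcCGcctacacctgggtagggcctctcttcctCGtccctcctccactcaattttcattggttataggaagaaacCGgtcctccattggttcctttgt
Sema3e: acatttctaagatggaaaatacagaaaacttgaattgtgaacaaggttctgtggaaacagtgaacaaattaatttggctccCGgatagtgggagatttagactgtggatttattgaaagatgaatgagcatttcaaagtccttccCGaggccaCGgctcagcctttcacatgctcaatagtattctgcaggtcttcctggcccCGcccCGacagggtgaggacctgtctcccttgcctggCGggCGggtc
Efnb2: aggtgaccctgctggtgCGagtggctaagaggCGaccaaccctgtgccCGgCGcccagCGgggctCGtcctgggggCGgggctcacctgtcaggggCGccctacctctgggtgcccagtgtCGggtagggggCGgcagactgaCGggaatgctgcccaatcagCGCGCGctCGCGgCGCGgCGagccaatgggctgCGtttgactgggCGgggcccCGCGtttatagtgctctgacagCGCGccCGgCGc
They differ widely: the Sema4f window holds 4 CG (46.0% G or C), that of Sema3e 7 CG (48.0% G or C) and that of Efnb2 27 CG (72.0% G or C). Windows were found for 41 of the 47 genes, with a median of 67.0% G or C.

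Ntn4, a laminin-like netrin of basement membranes, had log2 values of 9.17, 9.59 and 10.10 in alpha and 6.71, 7.04 and 8.30 in beta. No library overlapped, and the log2 fold change was -2.34 ± 0.26 (adjusted p = 7.11e-09, limma). Ntn1, the founding netrin, and Ntn3 did not pass, at -0.05 and 0.55. Nrp1, a co-receptor for secreted semaphorins and for VEGF, ranged from 6.59 to 8.98 in alpha and from 5.24 to 9.62 in beta. Its highest beta libraries were beta 1 at 9.62 and beta 5 at 7.39, the others lay at or under 5.62, and the log2 fold change of -1.80 ± 0.52 (adjusted p = 0.00656, limma) was -2.91 without the 5 libraries. Nrp2 did not pass, at 1.05 ± 0.69 (adjusted p = 0.254, limma). The remaining falls were those of the membrane semaphorins Sema6a (-1.58), Sema5a (-1.53), Sema4g (-1.10) and Sema6d (-0.86) and of the semaphorin receptor Plxna1 (-0.77), with adjusted p-values of 0.000144, 0.00517, 0.0158, 0.000227 and 0.0159 in limma.

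The smaller rises in beta were those of Plxnb2, Sema4b and Sema3c. Plxnb2, a receptor for class 4 semaphorins, and Sema4b, a membrane ligand of that class, rose by 0.66 ± 0.15 (adjusted p = 0.000866, limma) and 0.64 ± 0.20 (adjusted p = 0.0107, limma). Sema3c, a secreted semaphorin, rose by 1.46 ± 0.57 (adjusted p = 0.0454, limma), but most of its values lay under 5, and it missed the threshold without the 5 libraries (adjusted p = 0.107, limma), in 11 of 15 fits with 1 library left out, and at 0.20 with an offset of 64 on the linear scale (adjusted p = 0.288, limma). Unc50, which is no guidance gene, rose by 0.78 ± 0.22 (adjusted p = 0.00666, limma), and Unc5cl, at -1.90 ± 0.77, did not pass (adjusted p = 0.0537, limma). The membrane semaphorins left (Sema4a, Sema4c, Sema4d and Sema6b), the plexins left (Plxna2, Plxna3, Plxna4, Plxnb1 and Plxnc1) and Slit2 had log2 fold changes from -0.73 to 1.0 and did not pass.

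Without the 5 libraries 25 of 44 genes passed in beta against alpha, 22 of them among the 24 above, and 31.8% of all genes passed. The genes lost were Robo3 and Sema3c, and those added were Sema4a (-0.67), Plxna4 (-1.65) and Unc5cl (-2.64), all lower. The log2 fold change was then -3.27 for Sema3e, -2.62 for Ntn4, -2.29 for Efnb3, -2.15 for Sema6a, -1.84 for Sema5a and -1.61 for Ephb2. Those of Unc50, Plxnb2, Sema4b and Unc5a were 0.87, 0.82, 0.75 and 0.79, and all 10 passed in limma.

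**Figure D2:**
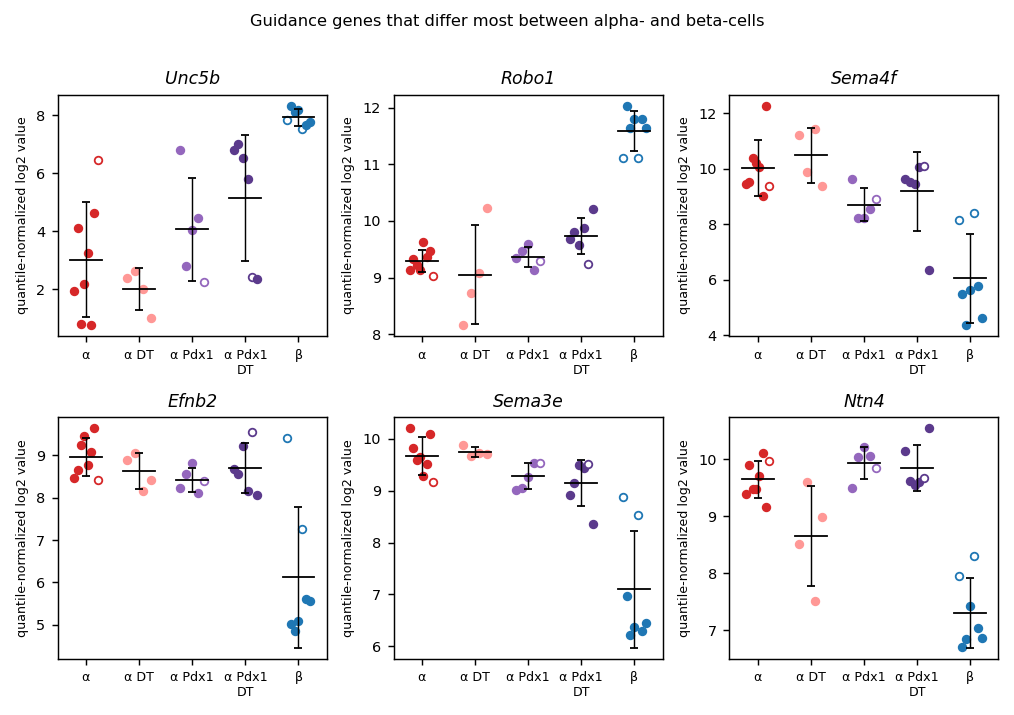
Quantile-normalized log2 value of 6 guidance genes in each library by group, with the group mean (line) and SD (bar). Open points are the 5 libraries that stood apart in Pdx1 or Gcg. Unc5b and Robo1 are highest in beta, and for Sema4f, Efnb2, Sema3e and Ntn4 the open beta points lie above the other beta libraries.

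Markers of other cells moved with this comparison. Of 6 mesenchymal markers in the table (of 10 listed), 3 were lower in beta, among them Col1a2 at -4.23 ± 0.36 (adjusted p = 8.9e-11, limma). Their summed level was 9.76 to 12.07 in alpha and 6.58 to 9.01 in beta, where Col1a1 and Lum stayed under 5 in every library. The 3 endothelial markers in the table (of 10 listed) summed to 6.53 to 8.76 in alpha and 7.10 to 9.96 in beta, and none passed. Both PP-cell markers, the hormone genes Ppy and Pyy, were lower in beta (median log2 fold change -3.56), with sums of 16.67 to 22.61 in alpha and 12.73 to 17.34 in beta. Of 4 delta-cell markers 1, Rbp4, was lower, and their sums were 14.53 to 16.14 in alpha and 12.03 to 16.79 in beta. The highest beta sums were those of beta 1 and beta 5, at 17.34 and 17.11 for PP-cell and 16.79 and 16.35 for delta-cell markers. The other beta libraries reached at most 13.69 and 13.05. Of 10 leukocyte markers 2 were higher (Fcer1g and C1qa), and all 10 had a positive log2 fold change, with a median of 1.73. Of 7 ductal markers 1 was higher (Krt7) and 1 lower (Spp1), and none of 6 acinar or 3 Schwann-cell markers passed. The part of mesenchymal, endothelial, PP-cell and delta-cell RNA in the guidance differences was not tested. With the leukocyte marker mean as a covariate the log2 fold change of Unc5b was 5.14, that of Robo1 2.14, that of Sema4f -3.89 and that of Efnb2 -3.04, each past the threshold.

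At 30 days after the toxin, no guidance gene of alpha-cells passed the test against alpha. In limma 0 of 44 passed, and over all genes tested 3.26% passed, 1.57% higher and 1.7% lower. The genes with the smallest p were Nrp2, Ntn4 and Plxnb2. Nrp2, a co-receptor for secreted semaphorins and lymphatic growth factor, had log2 values of 6.29, 8.13, 6.58 and 10.11 in the 4 alpha DT libraries and 4.13, 4.77 and 6.27 in alpha. The alpha DT libraries lay just above the highest alpha library or well above it, and the log2 fold change was 2.78 ± 0.82 (adjusted p = 0.0535, limma). The library with the most Nrp2, alpha DT 4 at 10.11, also had the highest leukocyte marker sum, 16.07, and 4 of 10 leukocyte markers were higher in alpha DT (Fcer1g, Tyrobp, Csf1r and Lyz2). With the leukocyte mean as a covariate the log2 fold change of Nrp2 was 0.62 (adjusted p = 0.607, limma), and without the 5 libraries it was 2.83 (adjusted p = 0.0147, limma).

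Ntn4 had log2 values of 8.51, 9.60, 7.51 and 8.98 in alpha DT, with 3 of 4 under the lowest alpha library (9.17), and a log2 fold change of -1.0 ± 0.30 (adjusted p = 0.0587, limma). Its value was -1.43 with the leukocyte covariate (adjusted p = 0.0171, limma) and -0.62 without alpha DT 3 (adjusted p = 0.234, limma). Plxnb2 had a log2 fold change of -0.57 ± 0.18 (adjusted p = 0.0663, limma). Neither Ntn4 (-0.95) nor Plxnb2 (-0.50) passed without the 5 libraries. Without alpha DT 3 the number of guidance genes past the threshold was 3 in place of 0, and the share of all genes was 3.87% in place of 3.26%. None of the 6 acinar markers passed, all 6 had a positive log2 fold change (median 1.85), and their sums were 9.89 to 16.79 in alpha and 11.85 to 17.90 in alpha DT. Of 4 delta-cell markers 3 had a positive log2 fold change (median 2.05), with sums of 14.53 to 16.14 in alpha and 15.22 to 17.79 in alpha DT. Both PP-cell markers had a positive one (median 1.14), with sums of 16.67 to 22.61 and 18.87 to 19.46. No delta-cell or PP-cell marker passed. The part of acinar, delta-cell and PP-cell RNA was not tested.

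Alpha-cells with Pdx1 had more of 2 netrin receptors and 2 secreted ligands. Against alpha, 4 of 44 genes passed in alpha Pdx1, all higher. Over all genes 4.33% passed, 2.36% higher and 1.98% lower. Unc5d, a netrin receptor that also binds the adhesion protein Flrt2, had log2 values of 5.55, 6.75, 6.31, 6.75 and 6.90 in the 5 alpha Pdx1 libraries and 0.76, 3.59 and 5.10 in alpha. Every alpha Pdx1 library was above every alpha library, the log2 fold change was 3.01 ± 0.69 (adjusted p = 0.0105, limma), and it passed in all 13 fits with 1 library left out. Most alpha libraries lay under 5, so the size of this fold rests on values near the bottom of the table. The highest alpha library was the one labelled alpha 8, which had high Pdx1, and without the 5 libraries the log2 fold change was 3.13 (adjusted p = 0.00194, limma). In beta the log2 values of Unc5d were 1.03, 3.28 and 3.64, so the Pdx1 group lay farther from beta than alpha did. Unc5d is at chr8:28646717-29219636, minus strand.

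Unc5c moved the same way from a high base. Its log2 values were 10.31, 10.84 and 11.62 in alpha and 11.71, 12.05, 11.77, 11.62 and 11.53 in alpha Pdx1. The alpha library labelled alpha 8 (11.62) reached into the Pdx1 range and the other alpha libraries did not, and the log2 fold change was 0.86 ± 0.23 (adjusted p = 0.0261, limma). It was 1.02 without the 5 libraries (adjusted p = 0.0015, limma) and missed the threshold without alpha 7 (adjusted p = 0.0572, limma) or without alpha Pdx1 2, 3 or 4 (highest adjusted p = 0.101, limma). Beta-cells had less Unc5c than alpha, at 9.05, 9.93 and 10.55.

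Slit2, the secreted ligand of Robo receptors, had log2 values of 6.76, 6.29, 5.31, 6.51 and 4.92 in alpha Pdx1 and 1.48, 3.21 and 5.54 in alpha. Of the 5 alpha Pdx1 libraries 3 lay above the top of alpha, which was alpha 5 and the library labelled alpha 8, both at 5.54. The other alpha libraries were under 5, so the size of the fold rests on values near the bottom of the table. The log2 fold change was 2.40 ± 0.68 (adjusted p = 0.0354, limma) and 2.94 without the 5 libraries (adjusted p = 0.00355, limma), but the call was lost in 7 of 13 fits with 1 library left out (highest adjusted p = 0.112, limma, without alpha Pdx1 4). Sema3c had log2 values of 6.0, 3.74, 5.51, 5.83 and 5.31 in alpha Pdx1 and 1.03, 2.94 and 5.56 in alpha. Its groups overlapped, with alpha 2 at 5.56 and alpha Pdx1 2 at 3.74, and the log2 fold change was 2.26 ± 0.63 (adjusted p = 0.0316, limma). The call of Sema3c was lost without the 5 libraries (adjusted p = 0.0726, limma) and in 7 of 13 fits with 1 library left out. It was also lost with an offset of 64, where the value was 0.49.

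The start of Slit2 is shown as that of the Robo ligand that rose, while Unc5d has no entry. The window is chr5:47982905-47983154, plus strand, in the same form as above, and its last 17 bases lie in a GENCODE exon.
Slit2: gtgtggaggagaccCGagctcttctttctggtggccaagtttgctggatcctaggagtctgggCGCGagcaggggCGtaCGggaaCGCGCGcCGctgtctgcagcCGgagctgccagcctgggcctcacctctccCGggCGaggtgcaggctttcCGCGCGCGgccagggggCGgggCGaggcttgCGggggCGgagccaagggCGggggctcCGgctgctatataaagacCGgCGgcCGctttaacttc
It holds 25 CG and is 69.6% G or C.

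Without the 5 libraries 7 of 44 genes passed in alpha Pdx1 against alpha, where the share over all genes also rose, from 4.33% to 6.61%. Of these 7 genes 3 were among the 4 above (Unc5d, Unc5c and Slit2). The added genes were Efnb3 (0.99, adjusted p = 0.0116) and Plxnb2 (0.56, adjusted p = 0.0412), both higher, and Nrp1 (-1.33, adjusted p = 0.0349) and Plxna2 (-0.74, adjusted p = 0.00478), both lower. With all libraries the log2 fold changes of these 4 in limma were 0.67, 0.36, -0.85 and -0.54, none past the threshold. Of the members that most separated beta from alpha, Robo1 had a log2 fold change of 0.07 ± 0.23 and Unc5b of 1.05 ± 0.86 in alpha Pdx1, and neither passed (adjusted p = 0.908 and 0.583, limma). Unc5b values were 6.80, 2.79, 4.04, 4.44 and 2.25 in the 5 alpha Pdx1 libraries, which spread widely, with alpha Pdx1 1 above every alpha library, and the library labelled alpha 8, at 6.47, was the highest alpha library.

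Of the beta-cell markers 3 of 9 were higher in alpha Pdx1 than in alpha (Ins2, Iapp and Pdx1 itself), 1 of 9 alpha-cell markers was lower (Slc7a2), and no marker of the other cell types listed passed. All 6 acinar markers had a negative log2 fold change (median -3.57), with sums of 9.89 to 16.79 in alpha and 6.89 to 14.30 in alpha Pdx1. Both PP-cell markers had a positive one (median 2.04), with sums of 16.67 to 22.61 and 18.47 to 22.60. The part of acinar and PP-cell RNA in the 4 guidance differences was not tested.

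**Figure D3:**
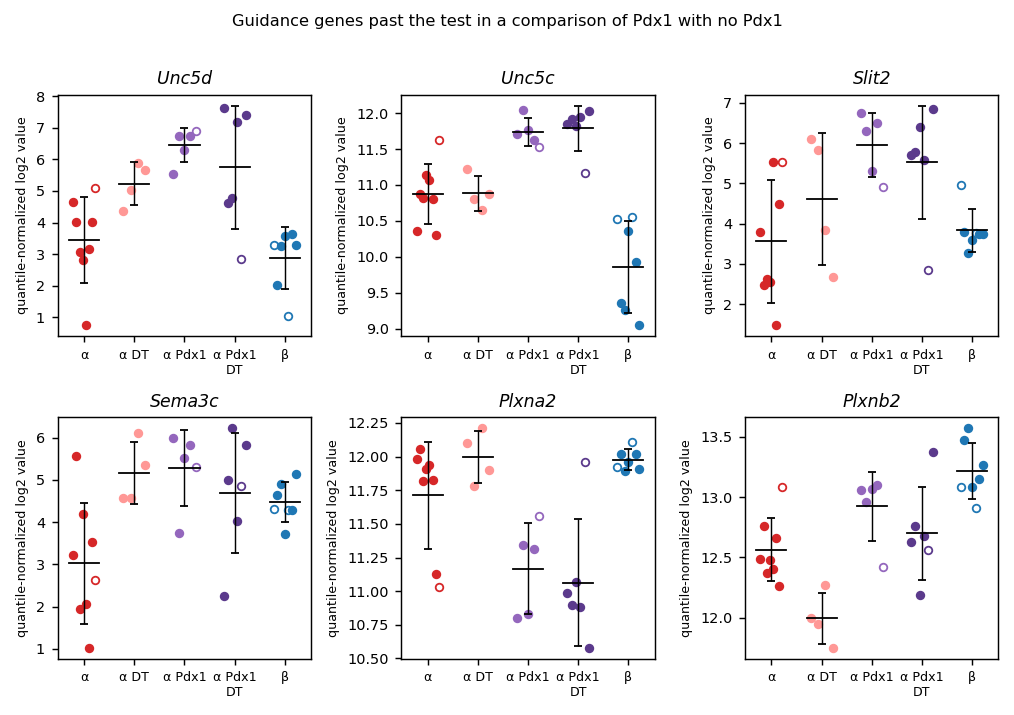
Quantile-normalized log2 value in each library by group for 6 guidance genes that passed in alpha Pdx1 against alpha (Unc5d, Unc5c, Slit2, Sema3c) or in alpha Pdx1 DT against alpha DT (Plxna2, Plxnb2), with the group mean (line) and SD (bar). Open points are the 5 libraries that stood apart, among them alpha 8 at the top of alpha for Unc5d, Unc5c and Slit2, and alpha Pdx1 DT 5 at the bottom of its group for the same 3 genes.

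Of the toxin groups, the one with Pdx1 had more Ntn4 and Plxnb2 and less Plxna2. Between alpha Pdx1 DT and alpha DT, 3 of 44 genes passed, 2 higher and 1 lower. Over all genes 2.1% passed, 1.78% higher and 0.319% lower. Plxna2, a semaphorin receptor of the class A plexins, had log2 values of 10.58, 10.94 and 11.96 in alpha Pdx1 DT and 12.10, 11.78, 12.21 and 11.90 in alpha DT. The groups overlapped only through the library labelled alpha Pdx1 DT 5 at 11.96, and the log2 fold change was -0.93 ± 0.22 (adjusted p = 0.0194, limma), or -1.11 without the 5 libraries (adjusted p = 0.000143, limma). The call was lost without alpha DT 3 (adjusted p = 0.0721, limma).

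Ntn4 had log2 values of 9.54, 9.64 and 10.54 in alpha Pdx1 DT, against 8.51, 9.60, 7.51 and 8.98 in alpha DT. The difference lay mostly in low values of alpha DT, since alpha Pdx1 DT covered about the alpha range of 9.17 to 10.10, and the log2 fold change was 1.20 ± 0.32 (adjusted p = 0.0397, limma). Without alpha DT 3 it was 0.82 (adjusted p = 0.204, limma), and it was lost in 6 of 10 fits with 1 library left out. Plxnb2 had log2 values of 12.19, 12.66 and 13.37 in alpha Pdx1 DT and 12.0, 11.95, 12.27 and 11.75 in alpha DT. These overlapped slightly, the log2 fold change was 0.71 ± 0.19 (adjusted p = 0.0402, limma), and the call was lost in 8 of 10 fits with 1 library left out. None of the 3 calls held with array quality weights or when the fit used these groups alone (adjusted p from 0.105 to 0.494, limma). Over all genes 0.192% passed with array weights and 0% with these groups alone, against 2.1% in the main fit. The fit with these groups alone therefore says nothing particular to these 3 genes. Of 6 acinar markers 0 had a positive log2 fold change (median -1.67), of 10 leukocyte markers 3 (median -1.31) and of 4 delta-cell markers 1 (median -0.89). None of them passed. With the leukocyte mean as a covariate the log2 fold changes were 1.35 for Ntn4, 0.72 for Plxnb2 and -1.02 for Plxna2. Each passed, and 4.18% of all genes did. The part of acinar and delta-cell RNA was not tested.

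Without the 5 libraries 8 of 44 genes passed in alpha Pdx1 DT against alpha DT, the 3 above (Ntn4 at 1.24 and Plxnb2 at 0.73) and 5 more, while the share over all genes went from 2.1% to 5.73%. Unc5b was higher by 3.70 (adjusted p = 0.00787), Epha1, an Eph receptor of epithelia, by 2.19 (adjusted p = 0.0472), Efnb3 by 1.31 (adjusted p = 0.00223) and Unc5c by 1.03 (adjusted p = 0.00407), and Sema6a was lower, at -1.40 (adjusted p = 0.00406), all in limma. With all libraries Unc5b had a log2 fold change of 3.15 ± 0.97 (adjusted p = 0.0796, limma). Its values in alpha Pdx1 DT were 6.80, 7.01, 6.51 and 5.80 in 4 libraries and 2.42 and 2.35 in the remaining pair, labelled alpha Pdx1 DT 5 and 6. The first 4 lay above every alpha DT library (2.38, 2.62, 2.0 and 0.99) and under every beta library, and the last 2 lay within the alpha DT range. The library labelled alpha Pdx1 DT 6 had high Pdx1, the fewest distinct low values of all libraries (32) and a leukocyte sum of 15.99.

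Among Pdx1 cells, the toxin group had more Sema6b, Sema4d and Unc5a. Between alpha Pdx1 DT and alpha Pdx1, 3 of 44 genes passed, all higher. Over all genes 9.22% passed, 4.83% higher and 4.39% lower. Sema6b, a membrane semaphorin that acts through class A plexins, had log2 values of 7.03, 2.93, 2.79, 2.21 and 2.86 in alpha Pdx1 and 5.70, 6.89 and 7.96 in alpha Pdx1 DT. Of 5 alpha Pdx1 libraries 4 were low and 1, alpha Pdx1 1, was within the toxin group's range, and the log2 fold change was 3.39 ± 0.75 (adjusted p = 0.00761, limma). The alpha group spanned both levels, from 2.69 to 7.48. In alpha Pdx1 the 4 low libraries were at 2.93 or under, so the size of this fold rests on values near the bottom of the table. Sema4d, a ligand of plexin B1 that is abundant on lymphocytes, had log2 values of 10.01, 9.06, 9.76, 9.42 and 8.89 in alpha Pdx1 and 9.51, 10.39 and 11.47 in alpha Pdx1 DT. Those groups overlapped through the library labelled alpha Pdx1 DT 5, and the log2 fold change was 1.03 ± 0.28 (adjusted p = 0.021, limma). Unc5a had log2 values of 10.12, 10.15, 10.68, 9.85 and 9.48 in alpha Pdx1 and 10.28, 10.67 and 11.34 in alpha Pdx1 DT, which overlapped, with a log2 fold change of 0.71 ± 0.22 (adjusted p = 0.0393, limma).

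Leukocyte and acinar markers differed between the same groups. Of 10 leukocyte markers 3 were higher (C1qa, Csf1r and Lyz2), all 10 had a positive log2 fold change (median 3.06), and their sums were 8.20 to 9.80 in alpha Pdx1 and 8.52 to 15.99 in alpha Pdx1 DT. None of the 6 acinar markers passed, but all 6 had a positive log2 fold change (median 3.59), with sums of 6.89 to 14.30 in alpha Pdx1 and 9.18 to 18.12 in alpha Pdx1 DT, and the part of acinar RNA was not tested. With the leukocyte mean as a covariate no call held, while the share of all genes past the threshold fell from 9.22% to 1.02%. The log2 fold change was then 2.91 for Sema6b (adjusted p = 0.0781, limma), 0.47 for Sema4d (adjusted p = 0.312, limma) and 0.67 for Unc5a (adjusted p = 0.157, limma). Without the covariate these were 3.39, 1.03 and 0.71. Sema6b passed in all 11 fits with 1 library left out, Sema4d in 8 and Unc5a in 4. Without the 5 libraries Sema6b (3.47) and Sema4d (1.09) passed, and Unc5a (0.63) did not (adjusted p = 0.0983, limma). In that fit Nrp2 (2.44, adjusted p = 0.0295, limma) and Efnb3 (0.93, adjusted p = 0.0324, limma) passed as well, both higher. The share of all genes past the threshold was then 7.65%.

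**Figure D4:**
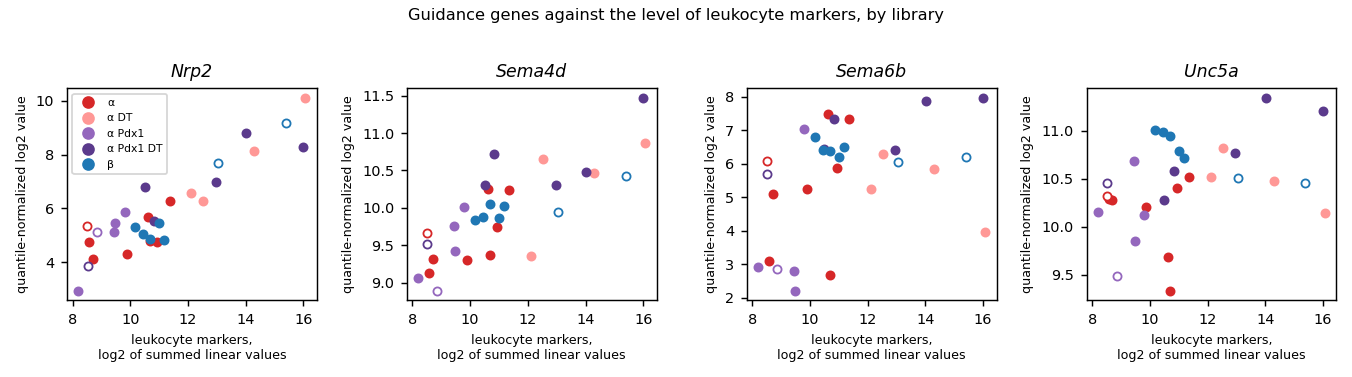
Quantile-normalized log2 value of Nrp2, Sema4d, Sema6b and Unc5a (vertical axes) against the log2 of the summed linear values of 10 leukocyte markers (horizontal axes) in each of the 30 libraries, coloured by group, with open points for the 5 libraries that stood apart. The libraries with the highest sums, near 16, have Nrp2 at 10.11 (alpha DT 4) and 8.29 (alpha Pdx1 DT 6), while the low values of Sema6b lie at sums under 11 in alpha and alpha Pdx1 and at the highest sum in alpha DT.

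Whether the effect of the toxin differed with Pdx1 was tested as an interaction. In limma 0 of 44 guidance genes and 0% of all genes passed. The smallest p belonged to Sema6b, with an interaction of 3.43 ± 1.07 on the log2 scale (adjusted p = 0.409, limma). For Sema3c it was -2.73 ± 0.95 (adjusted p = 0.423, limma) and for Unc5d -2.49 ± 1.05 (adjusted p = 0.482, limma). These were 3.40, -2.69 and -2.04 without the 5 libraries, and none passed. Unc5d had log2 values of 4.36, 5.02, 5.88 and 5.67 in alpha DT and 2.84, 5.98 and 7.63 in alpha Pdx1 DT, so it was above the alpha median of 3.59 in each alpha DT library.

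Alpha Pdx1 DT cells had more of many guidance ligands than beta-cells. Against beta, 22 of 44 genes passed, of which 17 were higher in alpha Pdx1 DT and 5 were lower. Over all genes 26.3% passed, 12.9% higher and 13.4% lower, and the median log2 fold change was 0.75 for the 44 and -0.04 for all genes. Of 22 ligands 12 were higher and 0 lower, and of 20 receptors 4 were higher and 4 lower. Other markers were higher too: both PP-cell markers (median log2 fold change 5.17, sums 17.42 to 22.61 against 12.73 to 17.34 in beta), 2 of 6 mesenchymal markers (Col1a2 and Dcn, with all 6 positive, median 1.81, sums 10.68 to 12.24 against 6.58 to 9.01) and 1 of 4 delta-cell markers (Rbp4), while 1 of 7 ductal markers (Krt7) was lower. The part of RNA from such cells was not tested. This comparison and that of beta with alpha share the beta libraries, so their values are given side by side and not counted as separate evidence.

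By p, the genes farthest above beta were Ntn4, Efnb3, Unc5c, Sema3e, Ephb2, Efnb2, Sema6d and Sema4f. Ntn4 was 2.55 ± 0.28 above beta (adjusted p = 1.1e-08, limma), with no overlap. Efnb3, an ephrin-B ligand best known in the nervous system, had log2 values of 8.27, 8.98 and 9.82 in alpha, 9.01, 10.60 and 11.50 in alpha Pdx1 DT and 6.26, 6.69 and 8.93 in beta. All alpha Pdx1 DT libraries were above all beta libraries, and the log2 fold change was 3.31 ± 0.38 (adjusted p = 4.05e-08, limma), or 4.22 without the 5 libraries. The lowest alpha Pdx1 DT value, 9.01, was that of the library labelled alpha Pdx1 DT 5, and the next was 10.27, above every alpha library. Unc5c had log2 values of 11.16, 11.88 and 12.03 in alpha Pdx1 DT, all above beta, and a log2 fold change of 1.93 ± 0.23 (adjusted p = 5.52e-08, limma). For Efnb3 and Unc5c the gap to beta was larger than the gap of alpha, -1.80 and -1.01 as beta against alpha.

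Sema3e had log2 values of 8.36, 9.29 and 9.51 in alpha Pdx1 DT, and its log2 fold change over beta was 2.04 ± 0.33 (adjusted p = 1.23e-05, limma). Efnb2 had 8.06, 8.62 and 9.56 and a log2 fold change of 2.59 ± 0.47 (adjusted p = 7.25e-05, limma). Sema4f had 6.35, 9.58 and 10.10 and 3.13 ± 0.65 (adjusted p = 0.000511, limma). In each of these the only overlap with beta came from beta 1, beta 5 or alpha Pdx1 DT 6. Ephb2, at 7.74, 8.54 and 9.54, was 1.35 ± 0.24 above beta (adjusted p = 5.51e-05, limma), and Sema6d, at 11.30, 11.60 and 12.14, was 0.94 ± 0.19 above it (adjusted p = 0.000252, limma). The other 9 genes that were higher were Efnb1, Sema4g, Unc5d, Sema6a, Sema4a, Sema5a, Plxna1, Unc5cl and Efna5, with log2 fold changes from 0.73 to 2.87.

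Robo1 and Unc5b were below the beta level. Robo1 had log2 values of 9.24, 9.74 and 10.21 in alpha Pdx1 DT and 11.11, 11.65 and 12.04 in beta, with no overlap, and a log2 fold change of -1.86 ± 0.22 (adjusted p = 6.43e-08, limma). Against alpha DT Robo1 had 0.68 ± 0.26, which did not pass (adjusted p = 0.156, limma). Unc5b had a log2 fold change of -2.77 ± 0.84 against beta (adjusted p = 0.013, limma), with every alpha Pdx1 DT library under every beta library, and it missed the threshold without alpha Pdx1 DT 6 (-2.21, adjusted p = 0.0503, limma). Plxna2 was lower than in beta, with a log2 fold change of -0.91 ± 0.19 (adjusted p = 0.000325, limma), while its level in alpha was 11.71 ± 0.40 (n = 8) and in beta 11.97 ± 0.08 (n = 7, mean ± SD). Plxnb2 was lower than in beta (-0.52 ± 0.16, adjusted p = 0.0156, limma), as was Unc50 (-0.66 ± 0.24, adjusted p = 0.0407, limma). Leaving out alpha Pdx1 DT 3 ended the call of Plxnb2 (adjusted p = 0.058, limma), and the call of Unc50 held in 3 of 13 fits with 1 library left out.

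Without the 5 libraries 25 of 44 genes passed against beta, 21 of them among the 22 above, and 25.5% of all genes passed. The call lost was that of Unc50 (adjusted p = 0.0722, limma). The genes added were Epha1 (1.77), Nrp1 (2.15), Nrp2 (2.18) and Slit2 (2.44), all higher. The log2 fold change was then 2.91 for Ntn4, 2.32 for Unc5c, 2.61 for Sema3e, 1.56 for Ephb2, 3.31 for Efnb2, 1.20 for Sema6d and 3.84 for Sema4f. On the lower side it was -1.96 for Robo1, -1.07 for Plxna2, -2.32 for Unc5b and -0.58 for Plxnb2, and all 11 passed in limma.

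**Figure D5:**
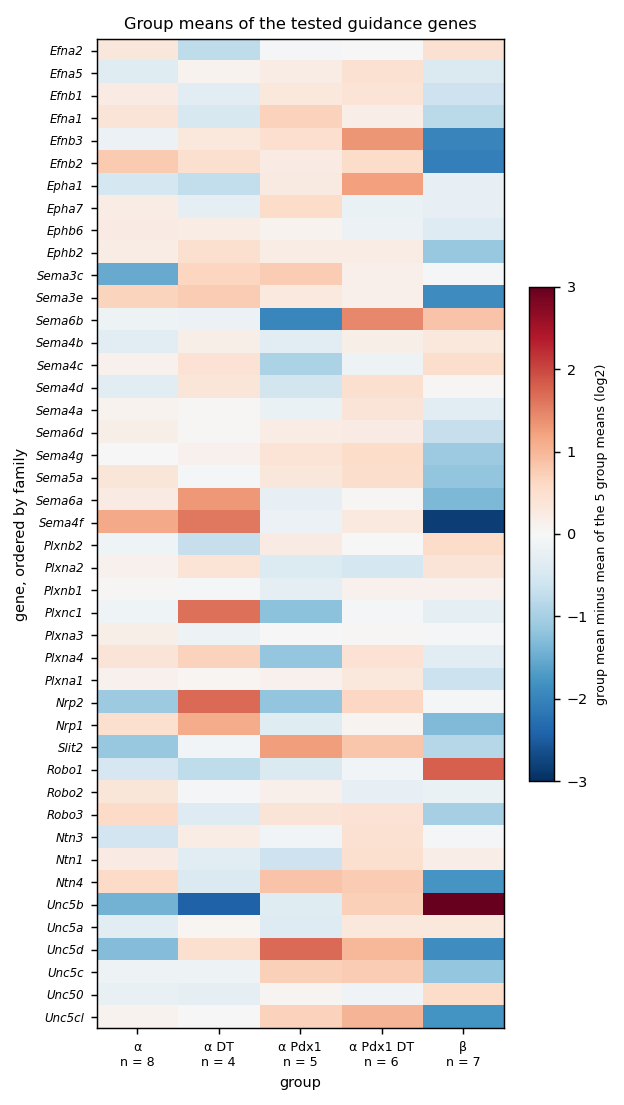
Mean log2 value of each of the 44 tested guidance genes in the 5 groups, shown as the difference from the mean of the 5 group means (red higher, blue lower, limits at -3 and 3), with genes in family order. Within the rows of Efnb2, Efnb3, Sema3e, Sema4f and Ntn4 beta is the bluest group, and within those of Unc5b and Robo1 it is the reddest. Within the rows of Slit2 and Unc5d the alpha Pdx1 and alpha Pdx1 DT groups are redder than the other groups.

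Other genes of the guidance pathways, 80 listed partners and effectors of which 70 were tested, moved in both directions between alpha and beta. In beta 15 were higher and 16 lower, 44.3% of the 70, where 34.5% of all genes passed, 16.9% higher and 17.6% lower. Of those lower, the smallest p-values were those of Chl1, an L1-family adhesion molecule that partners neuropilins (-3.62 ± 0.28, adjusted p = 8.17e-12), Mical3, of the actin-oxidizing effectors of plexins (-1.64 ± 0.15, adjusted p = 1.57e-10), and Srgap3, an intracellular partner of Robo (-2.58 ± 0.25, adjusted p = 4.47e-10), all in limma. Of those higher, they were those of Arhgef12, an exchange factor bound by class B plexins (1.08 ± 0.14, adjusted p = 1.59e-07), the adaptor Nck2 (1.29 ± 0.19, adjusted p = 2.3e-06) and L1cam, a neural adhesion molecule (1.81 ± 0.34, adjusted p = 6.96e-05), again in limma.

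The other comparisons are given as the share of the 70 partners called, with that of all genes in brackets. It was 5.71% (3.26%) in alpha DT against alpha and 4.29% (4.33%) in alpha Pdx1 against alpha. For alpha Pdx1 DT it was 4.29% (2.1%) against alpha DT, 7.14% (9.22%) against alpha Pdx1 and 34.3% (26.3%) against beta. In alpha DT against alpha 2 were higher, L1cam (2.48 ± 0.40, adjusted p = 0.00122) and the actin-severing Cfl1 (0.72), and 2 lower, Farp2, an exchange factor bound by class A plexins (-0.89 ± 0.21, adjusted p = 0.0183), and Met, a receptor kinase that can associate with class B plexins (-1.14). In alpha Pdx1 against alpha 2 were higher, Chl1 (1.62 ± 0.31, adjusted p = 0.00297) and L1cam (1.34), and 1 lower, the kinase Src (-1.05). In alpha Pdx1 DT against alpha DT 3 were higher and 0 lower: Farp2 (1.09), Met (1.49) and Chl1 (1.28). Farp2 and Met were the genes lower in alpha DT against alpha, and both comparisons share the alpha DT libraries. In alpha Pdx1 DT against alpha Pdx1 5 were higher, Cfl1, Dpysl2 (a mediator of semaphorin 3A signals), Src, Grb7 and Vasp, with log2 fold changes from 0.91 to 1.55, and 0 lower. Against beta 15 were higher and 9 lower in alpha Pdx1 DT, led by Chl1 (4.62), Srgap3 (2.98) and Mical3 (1.63) and by Nck2 (-1.14), Arhgef12 (-0.75) and Grip1, a scaffold that binds ephrin-B (-1.42). No partner passed in the interaction in limma.

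The windows of 250 bases before the starts were searched on both strands for 2 motifs. TAATTA, a core bound by homeodomain factors, was in 4.84% of the 32851 windows and in those of Efna1 and Robo3 among the 41 guidance genes with a window. The Efna1 window with the match has 191 of its bases in GENCODE exons, and the other Efna1 window, free of exon bases, has no match. Several of the 41 genes have more than 1 window, so a share of windows and a number of genes are not compared. TGACTCA, the AP-1 site, was in 4.46% of all windows and in a window each of Sema4c and Sema6b. The Sema6b window with the match belongs to a RefSeq start 6491 bases downstream of the GENCODE start. The Sema6b window at the GENCODE start has no match. Sema4c also has a window without a match, at a RefSeq start 792 bases downstream of its GENCODE start. The 2 motifs do not overlap each other, and a match is a description of these letters only.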

How the data were processed

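The 47 genes, the lists of markers and partners and the tests were chosen with earlier results of these data known. The submitters' processing notes name GSNAP and GRCm38, and nothing used here names the counter or annotation. Per gene, the authors deposited quantile-normalized log2 values, without read numbers, so precision is judged from the spread between libraries. All 30 libraries entered 1 limma fit (version 3.58.1, R 4.3.3, group means, trend, robust empirical Bayes), over the 16633 genes that reached 5 in 4 or more libraries. Two-sided p-values were adjusted (Benjamini-Hochberg) over genes within each comparison, with a threshold of 0.05, and the fit was tested on simulated data. Replicates were numbered in accession order, which only names them.

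Genes named with values were, in beta against alpha, up to 10 higher and 10 lower by fold change, and in other comparisons up to 8 in each direction by p, or the 3 smallest p where fewer than 3 passed. The remaining guidance genes are given to account for every one. Partners were named up to 3 in each direction by p. Alternatives covered filters, an offset of 64, the variance model, array weights, a leukocyte covariate, the groups fitted alone, and libraries left out. Promoter windows came from RefSeq (GRCm38.p6) and positions from GENCODE vM21. Tables and figures used Python 3.11.15, pandas 2.3.3 and matplotlib 3.10.9.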

Additional observations from a re-analysis of the deposited data

Results flagged for a closer look

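Of 125 sets of values (25 named guidance genes in each of the 5 groups), 13 held a library set far from the others of its group by Dixon's criterion, in 10 genes, where chance flags about 1 in 20. In alpha, Sema4f was 12.28 in alpha 7, against 10.38 for the next. In alpha DT, Unc50 was 12.50 in alpha DT 3 (next 10.92). In alpha Pdx1, Nrp2 was 2.93 in alpha Pdx1 2 (next 5.11), Plxnb2 was 12.41 in the library labelled alpha Pdx1 5 (next 12.96), and alpha Pdx1 1 had Sema6b at 7.03 (next 2.93) and Unc50 at 10.66 (next 11.74). The library labelled alpha Pdx1 DT 5, whose Pdx1 was at the alpha level, had Plxna2 at 11.96 (next 11.07), Slit2 at 2.84 (next 5.59) and Unc5c at 11.16 (next 11.82), and alpha Pdx1 DT 6 had Sema4f at 6.35 (next 9.44). In beta, beta 1, whose Gcg was at the top of the table, had Sema4d at 10.43 (next 10.05), Sema5a at 8.39 (next 6.17) and Slit2 at 4.97 (next 3.79).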

How the results depend on the processing

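The 46 named results gave 1005 values under the alternatives: 898 kept their direction and their side of the threshold, 97 fell short of it, 10 newly passed it and 0 reversed. The number of guidance genes past the threshold stayed within 1.5 times in beta against alpha, in alpha Pdx1 DT against beta and in the interaction. In alpha DT against alpha (0) it was 1 with the leukocyte covariate and 1 without the 5 libraries. In alpha Pdx1 against alpha (4) it was 1 with the filter at 7, 7 with array weights, 7 without the 5 libraries and 2 with these groups alone. In alpha Pdx1 DT against alpha DT (3) it was 0 with array weights, 8 without the 5 libraries and 0 with these groups alone. In alpha Pdx1 DT against alpha Pdx1 (3) it was 7 with array weights, 0 with the leukocyte covariate and 1 with these groups alone. The filter at 7 left Unc5d, Sema3c and Slit2 untested, which accounts for the 1. The cause of the other changes was not tested. The same filter gave no value for 7 of the 46 named results. Leaving out 1 library at a time gave 21 to 24 genes in beta against alpha, 0 to 3 in alpha DT against alpha, 1 to 6 in alpha Pdx1 against alpha, 0 (without alpha DT 3) to 7 (without alpha Pdx1 DT 5) in alpha Pdx1 DT against alpha DT, 1 to 8 (without alpha Pdx1 DT 5) in alpha Pdx1 DT against alpha Pdx1, 20 to 25 in alpha Pdx1 DT against beta and 0 to 0 in the interaction. The share over all genes moved in these fits too. In alpha Pdx1 against alpha it was 4.33%, 2.72% without alpha Pdx1 3 and 5.92% without alpha 1. In alpha Pdx1 DT against alpha DT it was 2.1%, 0.83% without alpha DT 3 and 5.59% without alpha Pdx1 DT 5. In alpha Pdx1 DT against alpha Pdx1 it was 9.22%, 4.03% without alpha Pdx1 2 and 15.4% without alpha Pdx1 DT 5. Counts over all genes also moved with the other settings. With array weights 5734 became 9375 (beta against alpha), 543 became 208 (alpha DT against alpha) and 721 became 3110 (alpha Pdx1 against alpha). With these weights 349 also became 32 (alpha Pdx1 DT against alpha DT) and 1534 became 3769 (alpha Pdx1 DT against alpha Pdx1). The last 2 changes were 4371 to 6881 (alpha Pdx1 DT against beta) and 0 to 1 (interaction). With the leukocyte covariate 543 became 269, 349 became 695 and 1534 became 170. Without the 5 libraries 721 became 1099 and 349 became 953, and with the groups alone 543 became 66, 349 became 0 and 1534 became 904. No paired analysis was possible because the labels carry no replicate numbers.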
